A study of Mus musculus with 6 samples.

Results

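The enzymes that cut extracellular matrix and the inhibitors that hold them back were examined in E14.5 mouse lacrimal gland bud epithelium with and without the Pea3 family of transcription factors. All genes whose symbols denote a matrix metalloproteinase (Mmp followed by a number), an ADAMTS enzyme (Adamts followed by a number) or a tissue inhibitor of metalloproteinases (Timp1 to Timp4) were taken, which gave 46 of the 23420 genes in the count tables: 23 Mmp, 19 Adamts and 4 Timp genes. RNA-seq was performed on buds that the study isolated by laser capture from frozen embryos, with 3 Control samples of genotype Le-Cre and 3 Pea3 TKO samples that carried Le-cre together with Pea3-/-, with Ermfl/fl and with Er81fl/fl, all at E14.5 and on a mixed background. Pea3, Erm and Er81 are the ETS factors Etv4, Etv5 and Etv1. Le-Cre expresses the Cre recombinase in the surface ectoderm that gives rise to the lens, the ocular surface and the lacrimal gland, so both groups carried the transgene, Erm and Er81 were floxed for deletion in that ectoderm, and Pea3 was missing from every cell of the Pea3 TKO embryos. The labels do not say whether a sample was 1 embryo or a pool, and the p-values below measure the spread between these samples.

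Matrix metalloproteinases (MMPs) are zinc enzymes made as inactive proenzymes that are switched on when a propeptide is removed. The gelatinases Mmp2 and Mmp9 cut denatured collagen and the type IV collagen of basement membranes, the collagenases cut fibrillar collagen, the stromelysins have wide substrate ranges, and the membrane-type enzymes act at the cell surface. ADAMTS enzymes are secreted relatives that carry thrombospondin repeats and trim proteoglycans, procollagens or fibrillin-associated matrix. TIMPs block the active site of these enzymes, and Timp2 has a second role, in which it tethers the Mmp2 proenzyme to Mmp14 on the cell surface for activation. In branching glands the epithelium sits on a basement membrane that is cut and rebuilt as buds grow out.

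The catalytic site that gives these enzymes their name is shown here because it is the feature the members share at the level of sequence. In both families 3 histidines of the active site hold the zinc ion. Of 42 enzymes with a complete reading frame in GENCODE M21, 35 held the site in the form with a glycine between the last 2 histidines, 5 (Adamts1, Adamts4, Adamts9, Adamts15 and Adamts20) held it with an asparagine there, and neither form was found in Adamts8 and Mmp1a. The sites of 7 members whose RNA differed between the genotypes are given 5′ to 3′ on the coding strand, 33 bases each, with the 3 histidine codons in capitals. All positions are on GRCm38, and every site lies in coding exons.
Mmp2: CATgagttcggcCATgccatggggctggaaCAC
Mmp9: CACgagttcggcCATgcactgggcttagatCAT
Mmp17: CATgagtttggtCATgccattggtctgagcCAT
Adamts14: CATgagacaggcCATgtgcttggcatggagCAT
Adamts18: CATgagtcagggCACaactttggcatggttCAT
Adamts4: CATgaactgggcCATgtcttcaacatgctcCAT
Adamts1: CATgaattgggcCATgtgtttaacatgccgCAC
The site of Mmp2 lies at chr8:92839279-92839311 in exon 8 and that of Mmp9 at chr2:164951133-164951165, also in exon 8, and both are on the plus strand. The site of Mmp17 lies at chr5:129596597-129596629 in exon 5 on the plus strand. In each of the ADAMTS genes shown the site is split by an intron, so the positions run from its first to its last base across 2 exons. They are chr10:61225465-61227123 on the minus strand for Adamts14, chr8:113767168-113771052 on the minus strand for Adamts18, chr1:171253210-171253915 on the plus strand for Adamts4 and chr16:85799191-85799545 on the minus strand for Adamts1. Mmp2 and Mmp9 shared 25 of the 33 bases, and Adamts1 and Adamts4 shared 27.

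Because the deleted factors bind DNA at ETS words, the promoters of the members were read as well. RefSeq promoters (250 bases before to 50 after a start site, GRCm38.p6) were matched for 32 members. Some of these have more than 1 start, giving 35 promoters. Mmp2, Mmp9, Mmp17, Adamts4 and Adamts10 had no entry, so their promoters were not read. The word AGGAAG, on either strand, was present in 16 of the 35 (45.7%) and in 34.1% of the 19848 promoters of all counted genes. The core GGAA, which AGGAAG contains, was present in 91.4% of member promoters and 95.6% of all. The AP-1 word TGAGTCA, on either strand, was present in 7 of the 35 (20%) against 4.76% of all. These shares are a description, and a match to a short word is not evidence of binding. The promoters of the 3 called members with an entry and the smallest p, and 1 promoter that holds both AGGAAG and TGAGTCA, are shown 5′ to 3′ on the strand of the gene, with every match to these words on either strand in capitals (a match on the other strand reads TTCC or TGACTCA).
Adamts14: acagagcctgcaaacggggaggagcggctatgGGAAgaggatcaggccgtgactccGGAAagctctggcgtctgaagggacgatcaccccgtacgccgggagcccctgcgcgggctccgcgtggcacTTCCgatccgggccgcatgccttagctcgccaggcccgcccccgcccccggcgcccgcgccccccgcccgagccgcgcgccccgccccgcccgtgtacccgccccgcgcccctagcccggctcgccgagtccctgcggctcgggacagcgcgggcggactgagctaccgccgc
Adamts18: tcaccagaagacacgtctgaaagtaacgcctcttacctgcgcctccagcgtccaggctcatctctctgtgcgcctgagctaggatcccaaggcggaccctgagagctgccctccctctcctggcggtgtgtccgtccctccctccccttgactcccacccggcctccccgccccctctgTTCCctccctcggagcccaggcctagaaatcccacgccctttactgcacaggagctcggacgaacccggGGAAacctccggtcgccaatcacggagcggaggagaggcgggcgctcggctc
Adamts1: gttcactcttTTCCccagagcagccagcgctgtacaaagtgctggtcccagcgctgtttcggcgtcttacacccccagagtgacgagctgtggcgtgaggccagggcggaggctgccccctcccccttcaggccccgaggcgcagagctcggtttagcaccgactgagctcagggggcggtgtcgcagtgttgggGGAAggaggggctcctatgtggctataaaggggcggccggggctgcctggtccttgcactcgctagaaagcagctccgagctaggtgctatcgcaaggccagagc
Mmp13: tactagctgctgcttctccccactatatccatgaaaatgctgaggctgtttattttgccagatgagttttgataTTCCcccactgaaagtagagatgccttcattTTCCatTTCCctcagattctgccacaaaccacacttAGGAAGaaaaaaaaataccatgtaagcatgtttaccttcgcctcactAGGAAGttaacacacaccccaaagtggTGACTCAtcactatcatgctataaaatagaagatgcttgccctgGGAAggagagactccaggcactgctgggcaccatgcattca
The Adamts14 promoter lies at chr10:61273370-61273669 on the minus strand and the Adamts18 promoter at chr8:113848790-113849089 on the minus strand. That of Adamts1 lies at chr16:85803064-85803363 on the minus strand and that of Mmp13 at chr9:7272264-7272563 on the plus strand. The promoters of Adamts14, Adamts18 and Adamts1 held GGAA cores but neither AGGAAG nor TGAGTCA. The same held for Adamts17, Mmp15, Mmp23 and Timp2, the other called members with an entry. All 16 promoters with AGGAAG belonged to members that were not tested or not called. Mmp13, a collagenase, was chosen for display after its sequence and values had been seen. Its promoter held AGGAAG at 109 and 62 bases before the start site and TGAGTCA on the opposite strand at 35 bases before it, and its RNA had 0 counts in every sample. All 7 member promoters with TGAGTCA belonged to genes of the MMP cluster on chromosome 9, which is described below.

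Each sample held 14194775 to 17860140 counts, so 3 counts of a gene corresponded to 0.169 to 0.210 CPM (counts scaled to a library of 1000000). The targeted genes fell in Pea3 TKO (Etv4 by 2.95, Etv5 by 2.93 and Etv1 by 1.74 on the log2 scale), and epithelial markers such as Cdh1 and Epcam were abundant in every sample, with the 8 markers summing to 3186 to 4029 CPM in Control and 5722 to 6792 CPM in Pea3 TKO, where 7 of the 8 rose and Epcam did not pass the threshold. Some libraries stood apart. The sum of 4 Y-linked genes was 136 to 175 CPM in the 3 Control samples and 139 CPM in Pea3 TKO 3. It was 0.44 and 0.21 CPM in Pea3 TKO 1 and 2, in which Xist reached 106 and 32.5 CPM. By these genes Pea3 TKO 1 and 2 were female and the other samples male, so sex was partly confounded with genotype. The sum of 10 mesenchymal markers was 418 and 584 CPM in the same 2 samples, 136 CPM in Control 3, and 14.98 to 33.7 CPM in the others. The leukocyte markers summed to 0.69 to 17.98 CPM in Control and 1.65 to 19.2 CPM in Pea3 TKO with Ptprc at or near 0. The 6 endothelial markers summed to 2.18 to 3.44 CPM in Control and 0.18 to 7.76 CPM in Pea3 TKO, with Pecam1, Tek and Kdr at up to 3.19, 4.90 and 2.38 CPM in a sample and Cdh5, Tie1 and Emcn at or near 0. The red cell markers summed to 221 CPM in Pea3 TKO 3, mostly Hbb-y with 204 CPM, and to 31.3 to 101.5 CPM in the other samples. Their part in the results below was not tested beyond the values given with and without these libraries.

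**Figure D1:**
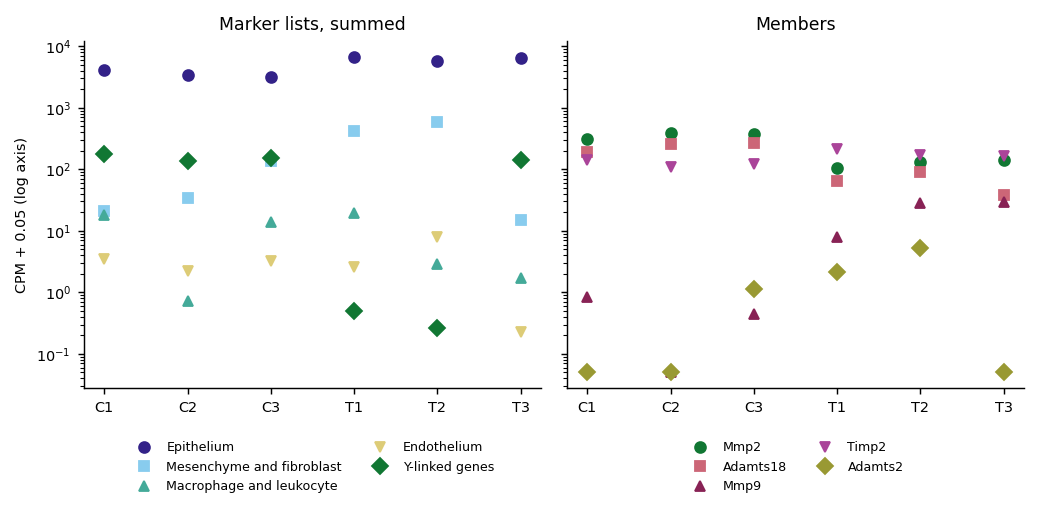
Level in each sample (C, Control; T, Pea3 TKO) of summed marker lists on the left and of 5 members on the right, in CPM plus 0.05 on a log axis, so a sample with no counts sits at the bottom. The mesenchymal sum was highest in Pea3 TKO 1 and 2 and the Y-linked sum lowest there, while Mmp2 and Adamts18 were lower in all 3 Pea3 TKO samples.

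Across the family, 27 members had enough counts to be tested and 12 of these passed an adjusted p of 0.05 (edgeR quasi-likelihood test with Benjamini-Hochberg adjustment over 13087 genes). In Pea3 TKO 7 members fell, namely Mmp2, Mmp17, Adamts4, Adamts10, Adamts14, Adamts17 and Adamts18. Another 5 rose, namely Mmp9, Mmp15, Mmp23, Adamts1 and Timp2. By the same rule 25.0% of all tested genes were called, 13.6% higher and 11.3% lower. Without Control 3 the counts were 3 higher and 5 lower, where 14.4% of all tested genes were called. Without Pea3 TKO 1 they were 3 higher and 6 lower, where 17.0% of all tested genes were called. The groups did not overlap for 15 of the 27 members, and for 43.9% of all tested genes. The median log2 difference was -0.12 over the 27 members and 0.01 over all tested genes. By family it was 0.58 over 8 MMPs, of which 3 rose and 2 fell, -0.50 over 16 ADAMTS enzymes, of which 1 rose and 5 fell, and 0.56 over 3 TIMPs, of which 1 rose.

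**Figure D2:**
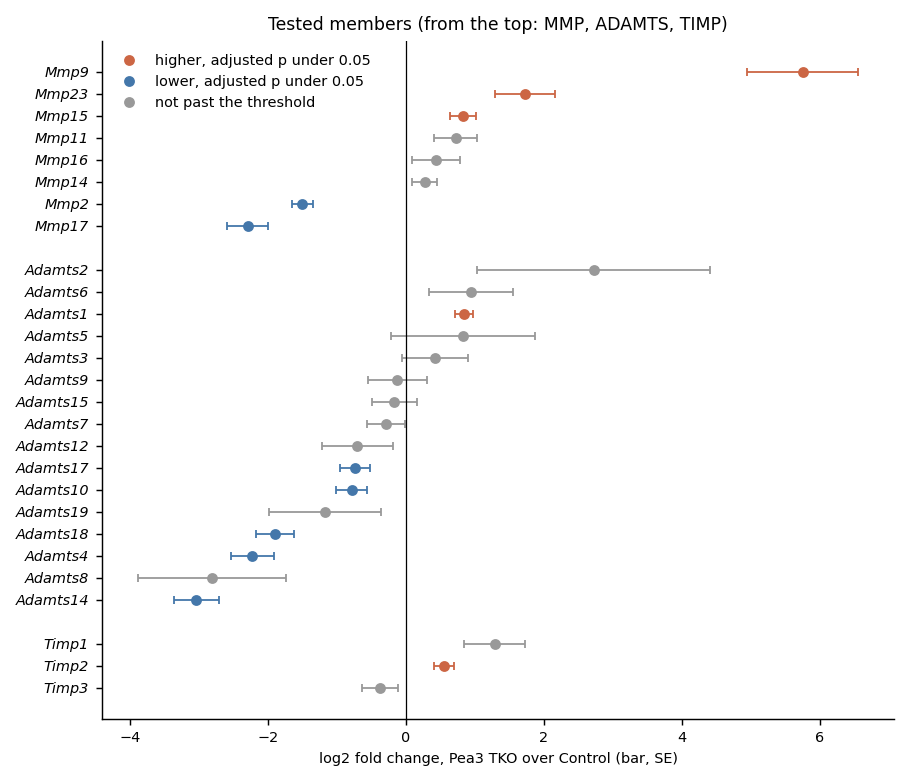
Log2 fold change of Pea3 TKO over Control for the 27 tested members, with the standard error as a bar and the members grouped by family. The decreases of Adamts14, Mmp17, Adamts4, Adamts18 and Mmp2 and the increases of Mmp9 and Mmp23 lie farthest from 0 among the members past the threshold.

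Gelatinases moved in opposite directions. Mmp2 (ENSMUSG00000031740.8, chr8:92827291-92853420) had 307, 387 and 373 CPM in the 3 Control samples and 105, 133 and 139 CPM in the 3 Pea3 TKO samples. Every Pea3 TKO sample was below every Control sample, by a wide gap. The mean fell from 356 ± 43.0 to 126 ± 18.4 CPM (SD, n = 3), a ratio of 2.83, with a log2 fold change of -1.50 (SE 0.15, adjusted p = 1.9e-04). Mmp9 (ENSMUSG00000017737.2, chr2:164940780-164955850), the gelatinase that leukocytes and remodelling epithelia are known to secrete, had 0.79, 0 and 0.39 CPM in Control and 8.00, 28.3 and 29.8 CPM in Pea3 TKO. The Control values rest on 14, 0 and 6 counts, and the groups did not overlap. Its log2 fold change was 5.75 (SE 0.81, adjusted p = 0.0012), with a ratio of the means of 56.0 that depends on those few counts. In the order of the samples above, the 6 leukocyte markers summed to 17.98, 0.69 and 13.7 CPM in Control and 19.2, 2.87 and 1.65 CPM in Pea3 TKO, and the sum in Pea3 TKO 3 was all Cd68, a macrophage marker. Their part in the Mmp9 values was not tested. In bulk samples, a change in the number of cells that express a gene and a change in RNA per cell cannot be told apart.

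Membrane-type MMPs also split. Mmp17 (ENSMUSG00000029436.9, chr5:129584169-129611099), which is held in the membrane by a lipid anchor, had 14.49, 20.3 and 21.1 CPM in Control and 3.05, 3.71 and 4.58 CPM in Pea3 TKO. All Pea3 TKO samples were far below the Control samples, and the log2 fold change was -2.30 (SE 0.30, adjusted p = 8.2e-04). Mmp15 (ENSMUSG00000031790.8, chr8:95352268-95375080), a transmembrane enzyme, had 25.1, 19.6 and 24.4 CPM in Control and 47.8, 39.2 and 36.0 CPM in Pea3 TKO. It was higher in all Pea3 TKO samples, with a log2 fold change of 0.83 (SE 0.19, adjusted p = 0.011). Mmp14 (chr14:54431612-54445364), the membrane-type enzyme that activates the Mmp2 proenzyme, had 166, 126 and 173 CPM in Control and 236, 158 and 166 CPM in Pea3 TKO. The groups overlapped, and the log2 fold change of 0.27 (SE 0.18, adjusted p = 0.30) did not pass the threshold.

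Of the remaining MMPs, Mmp23 (ENSMUSG00000029061.2, chr4:155650655-155653384), an unusual family member that lacks the hemopexin domain, had 2.09, 5.36 and 2.99 CPM in Control and 16.0, 8.39 and 10.2 CPM in Pea3 TKO. It was higher in each Pea3 TKO sample, with a log2 fold change of 1.73 (SE 0.44, adjusted p = 0.019). The call was lost without Control 3 (adjusted p = 0.064) and without Pea3 TKO 1 (adjusted p = 0.078). Mmp11 (chr10:75923222-75936496), the stromelysin that is typically made by stroma, had 48.1, 29.1 and 22.8 CPM in Control and 59.8, 71.0 and 34.2 CPM in Pea3 TKO. Control 1 lay above Pea3 TKO 3, so the groups overlapped, and the log2 fold change was 0.72 (SE 0.31, adjusted p = 0.12). Without Control 1 its adjusted p was 0.023, and without Pea3 TKO 3 it was 0.040. With the Y-linked level as a covariate its log2 fold change was 0.03 (adjusted p = 0.98). With the mesenchymal marker level as a covariate it was 0.49 (adjusted p = 0.42). Mmp11 shares 155 exonic bases with Chchd10 on the other strand, and how the counting treated strand is not given in the sources used here, so reads in that overlap cannot be told apart.

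**Figure D3:**
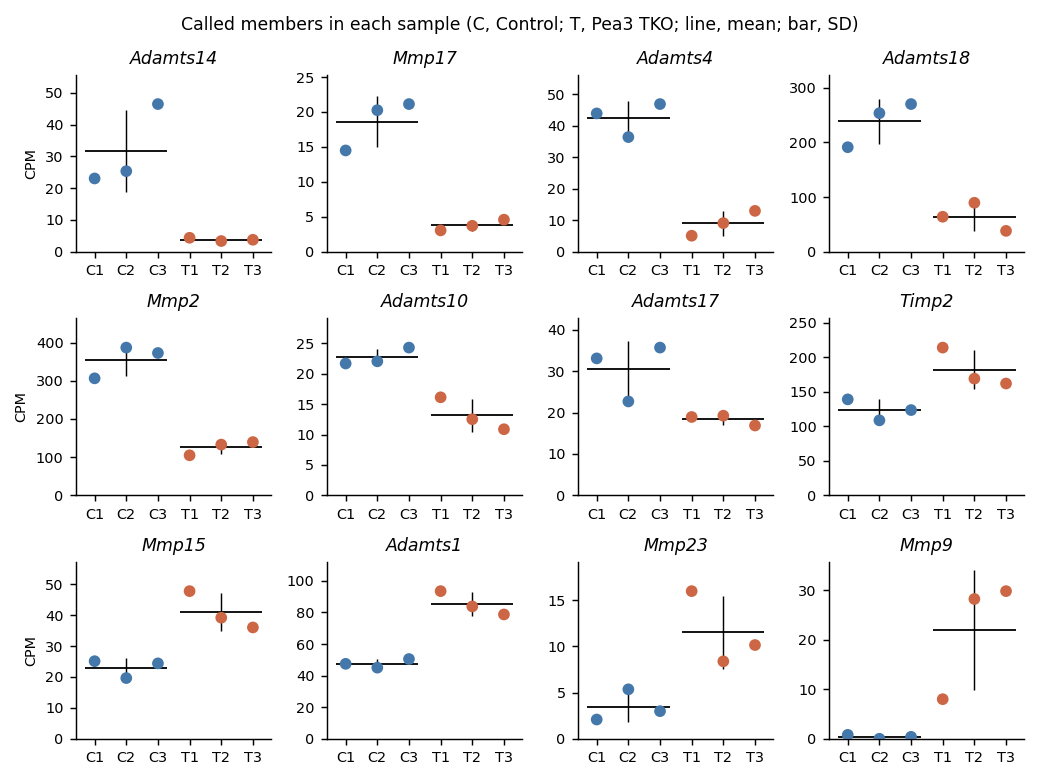
Level in CPM in each sample (C, Control; T, Pea3 TKO) of the 12 members past the threshold, each on its own axis from 0, with the mean as a line and the SD as a bar. In all 12 panels the Control and Pea3 TKO samples do not overlap.

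A group of MMPs had almost no counts. All 10 MMP genes of the cluster at chr9:7272514-7699585 (the collagenases Mmp1a, Mmp1b, Mmp8 and Mmp13, the stromelysins Mmp3 and Mmp10, the matrilysin Mmp7, the macrophage elastase Mmp12, the enamel protease Mmp20, and Mmp27) together had 12 counts over the 6 samples. Mmp1a had 11 of these, in Control 1, and Mmp7 had 1, in Pea3 TKO 3. Mmp1a and Mmp1b are closely related copies, so reads of either could be assigned to the other. Mmp25 and Mmp28 had 0 counts in every sample. Mmp19, Mmp21 and Mmp24 had at most 20, 4 and 17 counts in any sample. A count of 0 allows up to 0.169 to 0.210 CPM per library. The RNA of the interstitial collagenases was thus not detected above that limit in 5 of the 6 libraries.

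Among the ADAMTS enzymes, those that remove the N-propeptide of procollagens comprise Adamts2, Adamts3 and Adamts14. Adamts14 (ENSMUSG00000059901.12, chr10:61197112-61273438) had 23.1, 25.4 and 46.5 CPM in Control and 4.38, 3.36 and 3.76 CPM in Pea3 TKO. Control 3 was the highest sample and all Pea3 TKO samples lay close together below the Control samples. The log2 fold change of -3.04 (SE 0.32, adjusted p = 3.0e-04) was the largest decrease among the called members, a ratio of the means of 8.26. Adamts3 (chr5:89677087-89883334) had 5.69, 3.93 and 12.4 CPM in Control and 7.24, 7.202 and 14.9 CPM in Pea3 TKO, which overlap. Its log2 fold change was 0.42 (SE 0.48, adjusted p = 0.56). Adamts2 had 0, 0 and 1.11 CPM in Control and 2.10, 5.24 and 0 CPM in Pea3 TKO (adjusted p = 0.27), so it was detected in the 3 samples with the highest mesenchymal marker sums. The part of mesenchymal cells in these values was not tested.

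The enzymes known to cut aggrecan and versican gave 1 decrease and 1 increase among 6 tested. Adamts4 (ENSMUSG00000006403.13, chr1:171250421-171260637), an aggrecanase, had 43.97, 36.5 and 47.0 CPM in Control and 5.08, 9.09 and 13.0 CPM in Pea3 TKO. The groups were well apart, with a log2 fold change of -2.23 (SE 0.31, adjusted p = 0.0011). Adamts1 (ENSMUSG00000022893.14, chr16:85793827-85803113), which cuts versican, had 47.5, 45.1 and 50.5 CPM in Control and 93.5, 83.8 and 78.8 CPM in Pea3 TKO. The samples of each group lay close together and the groups did not overlap, with a log2 fold change of 0.84 (SE 0.13, adjusted p = 0.0020). Of the substrates, Vcan (versican) had 310 to 482 CPM in Control and 432 to 581 CPM in Pea3 TKO (adjusted p = 0.30), whereas Acan (aggrecan) was at 0 in 5 of the 6 samples and had 0.21 CPM in Pea3 TKO 2.

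Adamts18 (ENSMUSG00000053399.9, chr8:113697126-113848738), an orphan enzyme whose loss in mice is known to affect the lung, the kidney and the eye, was the most abundant ADAMTS RNA in Control. It had 191, 254 and 270.3 CPM in Control and 64.0, 89.6 and 38.1 CPM in Pea3 TKO. Every Pea3 TKO sample was below every Control sample and Pea3 TKO 3 was the lowest, with a log2 fold change of -1.90 (SE 0.27, adjusted p = 0.0012) and a ratio of the means of 3.73. Adamts10 (chr17:33524204-33553782) and Adamts17 (chr7:66839735-67153171) are both linked to fibrillin microfibrils. Adamts10 had 21.7, 22.1 and 24.3 CPM in Control and 16.1, 12.5 and 10.9 CPM in Pea3 TKO, with a log2 fold change of -0.79 (SE 0.23, adjusted p = 0.031). Adamts17 had 33.1, 22.7 and 35.7 CPM in Control and 18.9, 19.2 and 16.9 CPM in Pea3 TKO, with a log2 fold change of -0.73 (SE 0.22, adjusted p = 0.034). The groups did not overlap for either gene, but Control 2 lay near the Pea3 TKO samples for Adamts17. Adamts10 lost its call without Control 2 or 3 or without Pea3 TKO 2 or 3 (adjusted p 0.078 to 0.10). Adamts17 lost its call without any 1 sample other than Control 2 (adjusted p 0.072 to 0.13).

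Adamts7 (chr9:90163069-90208071), which cuts cartilage oligomeric matrix protein, had 21.9, 46.1 and 31.6 CPM in Control and 20.9, 28.3 and 31.9 CPM in Pea3 TKO. The groups overlapped (log2 fold change -0.30, SE 0.28, adjusted p = 0.48), and the gene shares 122 exonic bases with Tbc1d2b on the other strand. The other 9 tested members without a call (Adamts2, Adamts5, Adamts6, Adamts8, Adamts9, Adamts12, Adamts15, Adamts19 and Mmp16) had means of 1.25 to 11.4 CPM over all samples. Their log2 fold changes ran from -2.82 to 2.73, and their adjusted p from 0.083 to 0.86. The groups did not overlap for 2 of them. One was Adamts8, an aggrecan-cutting enzyme with the largest decrease of these 9, which had 2.82, 3.18 and 6.50 CPM in Control and 0.32, 1.47 and 0 CPM in Pea3 TKO. The other was Mmp16, a membrane-type enzyme, with 3.97 to 6.596 CPM in Control and 6.86 to 8.11 CPM in Pea3 TKO. Adamts8 and Mmp16 were singled out after their values were seen. Adamts13, which cuts von Willebrand factor in blood, had 0 counts throughout, and Adamts16 and Adamts20 had at most 18 and 16 counts in any sample.

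Among the inhibitors, Timp2 (ENSMUSG00000017466.9, chr11:118301069-118355740) had 139, 109 and 124 CPM in Control and 214, 169 and 162 CPM in Pea3 TKO. It was higher in all Pea3 TKO samples, by a log2 fold change of 0.56 (SE 0.15, adjusted p = 0.022). The adjusted p was 0.090 without Control 2, 0.069 without Control 3 and 0.064 without Pea3 TKO 1. Timp1 (ENSMUSG00000001131.11, chrX:20870166-20874735) had 1.92, 2.06 and 2.80 CPM in Control and 5.97, 4.97 and 5.58 CPM in Pea3 TKO. The groups did not overlap, but the log2 fold change of 1.29 (SE 0.44, adjusted p = 0.058) did not pass the threshold, whereas DESeq2 gave an adjusted p of 0.028. Timp3 (chr10:86300372-86349506), the inhibitor that binds to matrix, had 25.5, 14.6 and 17.7 CPM in Control and 13.6, 13.9 and 16.9 CPM in Pea3 TKO. Its groups overlapped (log2 fold change -0.38, SE 0.26, adjusted p = 0.32). Timp3 lies within Syn3 on the opposite strand, with 1733 exonic bases in common, and Syn3 rose by a log2 fold change of 0.80 (SE 0.23, adjusted p = 0.028), so the value of Timp3 is uncertain. Timp4 had 0 counts in every sample.

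To compare members with each other, CPM were divided by the length of the merged exons. On this scale Mmp2 stood first in Control, with 106 CPM per kb, followed by Timp2 with 31.7, Mmp14 with 25.96, Adamts18 with 23.4 and Mmp11 with 12. In Pea3 TKO, Timp2 stood first with 46.7 CPM per kb, followed by Mmp2 with 37.3, Mmp14 with 31.4, Mmp11 with 19.8 and Adamts1 with 16.1. This order depends on the length used. With the longest transcript of each gene, Mmp2 was again first in Control, followed by Mmp14, Adamts18 and Timp2, and in Pea3 TKO Mmp14 came first with 22.4% of the summed level, followed by Timp2 with 19.0% and Mmp2 with 16.1%. The share of Mmp2 in the summed level of all members was 37.6%, 45.7% and 41.0% in the Control samples and 14.6%, 19.4% and 21.9% in the Pea3 TKO samples. The sum itself was 254 ± 14.1 CPM per kb in Control and 202 ± 12.1 CPM per kb in Pea3 TKO (SD, n = 3). Its MMP component was 153 ± 6.77 and 109 ± 5.44, its ADAMTS component 64.8 ± 9.79 and 38.3 ± 2.17, and its TIMP component 36.7 ± 4.5 and 54.7 ± 7.53 CPM per kb. The ratio of Timp2 to Mmp2 per length was 0.39, 0.24 and 0.29 in Control and 1.77, 1.10 and 1.01 in Pea3 TKO. Timp2 RNA was thus below Mmp2 RNA in every Control sample with either length. In Pea3 TKO it was above Mmp2 RNA in samples 1 and 2, but in Pea3 TKO 3 the order turned with the length, since Timp2 had 18.4% and Mmp2 19.03% of the summed level with the longest transcript. The ratio of Mmp14 to Mmp2 was 0.31, 0.18 and 0.26 in Control and 1.28, 0.67 and 0.67 in Pea3 TKO. These are levels of RNA and descriptions, and they carry no test.

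**Figure D4:**
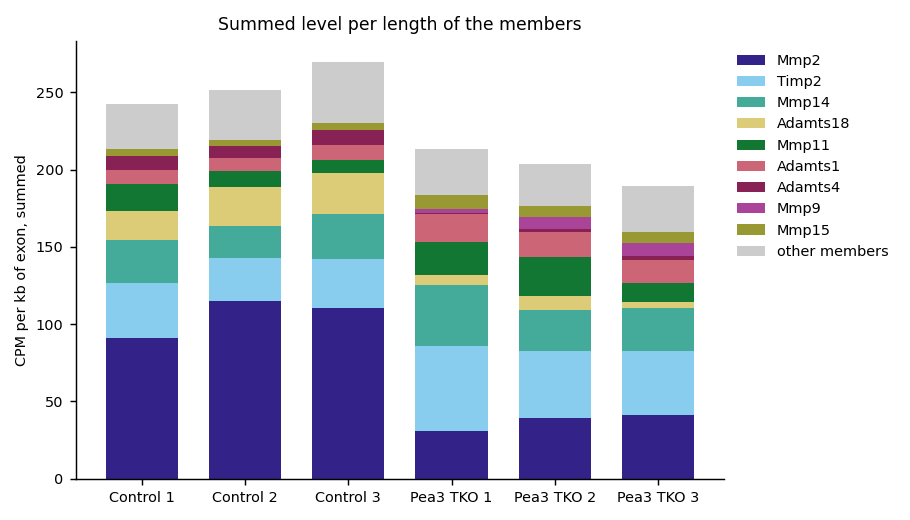
Summed level of all 46 members in each sample in CPM per kb of merged exons, with the 9 named members in colour and the others in grey. Mmp2 makes up the largest block in each Control sample and a smaller block than Timp2 in Pea3 TKO 1 and 2, while in Pea3 TKO 3 both blocks are nearly equal and their order turns with the longest transcript as the length.

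The genes that act on the members or serve as their substrates were read from lists of 93 genes in the tables, of which 66 were tested, 17 rose and 13 fell, beside 13.6% higher and 11.3% lower among all tested genes. Leaving out 1 sample at a time gave 10 to 22 higher, with the fewest without Control 2 or Pea3 TKO 1, and 6 to 9 lower, with the fewest without Control 2, while 14.4% to 25.0% of all tested genes were called in these fits. Of 5 tested proprotein convertases, which can activate membrane-type MMPs and ADAMTS enzymes, Pcsk6 fell (log2 fold change -1.81, adjusted p = 0.0053), and Furin did not pass the threshold (90.3 to 116 CPM in Control, 109 to 129 CPM in Pea3 TKO, adjusted p = 0.51). Of 9 tested modulators of MMPs at the cell surface or in the matrix, Cd63, a tetraspanin that binds Timp1, rose by 0.56 and Lrp1, an endocytic receptor that clears MMPs and ADAMTS enzymes, by 0.67 on the log2 scale. Reck, a membrane-anchored MMP inhibitor, had an adjusted p of 0.41. In the plasminogen system 4 of 10 genes were tested. Serpine2, a protease inhibitor, had 738, 730 and 765 CPM in Control and 249.4, 328 and 295 CPM in Pea3 TKO, whereas Plat, the tissue plasminogen activator, had 114, 83.4 and 105 CPM in Control and 166, 208 and 340 CPM in Pea3 TKO. Neither pair of groups overlapped, and the log2 fold changes were -1.36 (adjusted p = 1.5e-04) and 1.24 (adjusted p = 0.0058).

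Of 10 tested ADAM genes, which encode membrane relatives of the ADAMTS enzymes, 3 fell (Adam10, Adam11 and Adam23) and 1 rose (Adam28, log2 fold change 2.07). Leaving out single samples, Adam28 was called in 4 of 6 fits, Adam10 in 2, Adam23 in 1 and Adam11 in none. With the Y-linked covariate the adjusted p of these ADAM genes ran from 0.13 to 0.32. Of 5 tested ADAMTS-like proteins, which lack the protease domain, 4 rose: Papln by 1.58, Adamtsl5 by 2.68, Thsd4 by 1.81 and Adamtsl1 by 4.04 on the log2 scale. Papln, a basement membrane protein, had 15.1 to 25.5 CPM in Control and 49.4 to 64.6 CPM in Pea3 TKO. The other 3 were below 9 CPM in every sample. Leaving out single samples, Papln was called in all 6 fits, Adamtsl5 in 3, and Thsd4 and Adamtsl1 in 2 each. With the Y-linked covariate the adjusted p was 0.01 for Papln, 0.26 for Adamtsl5, 0.4 for Thsd4 and 0.45 for Adamtsl1. The astacin protease Bmp1, which removes the C-propeptide of procollagens, was the 1 tested member of its list and did not pass (adjusted p = 0.063). Of 7 cathepsins, lysosomal proteases that can also be secreted, 3 rose (Ctsh by 2.64, Ctsd by 0.58 and Ctsl by 0.47) and none fell. Leaving out single samples, Ctsh was called in all 6 fits and Ctsd and Ctsl in 2 each. With the Y-linked covariate none of the 3 passed (adjusted p 0.059, 0.24 and 0.24). Of 11 other tested matrix-cutting enzymes, 4 rose and 2 fell. Those that rose were the serine proteases Htra3 (log2 fold change 3.73, adjusted p = 5.8e-04) and Htra1 (3.18, adjusted p = 6.4e-04), Tmprss4 (4.72, adjusted p = 0.014) and Tmprss2 (1.33, adjusted p = 0.044). Hpn (-0.45, adjusted p = 0.037) and Hyal2 (-0.48, adjusted p = 0.038) fell. Htra3, Htra1 and Tmprss4 were called in all 6 fits that left out 1 sample, and Tmprss2, Hpn and Hyal2 in 1 each. With the Y-linked covariate the adjusted p was 0.0091 for Htra3, 0.013 for Htra1, 0.081 for Tmprss4, 0.3 for Tmprss2, 0.19 for Hpn and 0.16 for Hyal2. Of 6 tested genes in the list of proteoglycans and link proteins, Dcn passed (log2 fold change 4.68), and it is also in the mesenchymal list. Dcn had 69.7 and 73.6 CPM in Pea3 TKO 1 and 2 but 2.41 CPM in Pea3 TKO 3, within the Control range of 0.25 to 4.42 CPM, and with the Y-linked covariate its adjusted p was 0.92.

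Of 8 tested genes of the basement membrane list 6 fell and 1 rose, where 11.3% of all tested genes fell and 13.6% rose. The median log2 difference was -0.81 in the list and 0.01 over all tested genes. Col4a1, a chain of the type IV collagen that gelatinases cut, had 297, 323 and 422 CPM in Control and 199.8, 189 and 141 CPM in Pea3 TKO, which do not overlap, with a log2 fold change of -0.98 (adjusted p = 0.0036). Col4a6 fell by 1.28 and Col4a2 by 0.87 on the log2 scale. Nid1, a linker between laminin and type IV collagen, rose by 1.48 (adjusted p = 9.2e-04), with 22.8 to 34.6 CPM in Control and 74.7 to 101 CPM in Pea3 TKO.

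**Figure D5:**
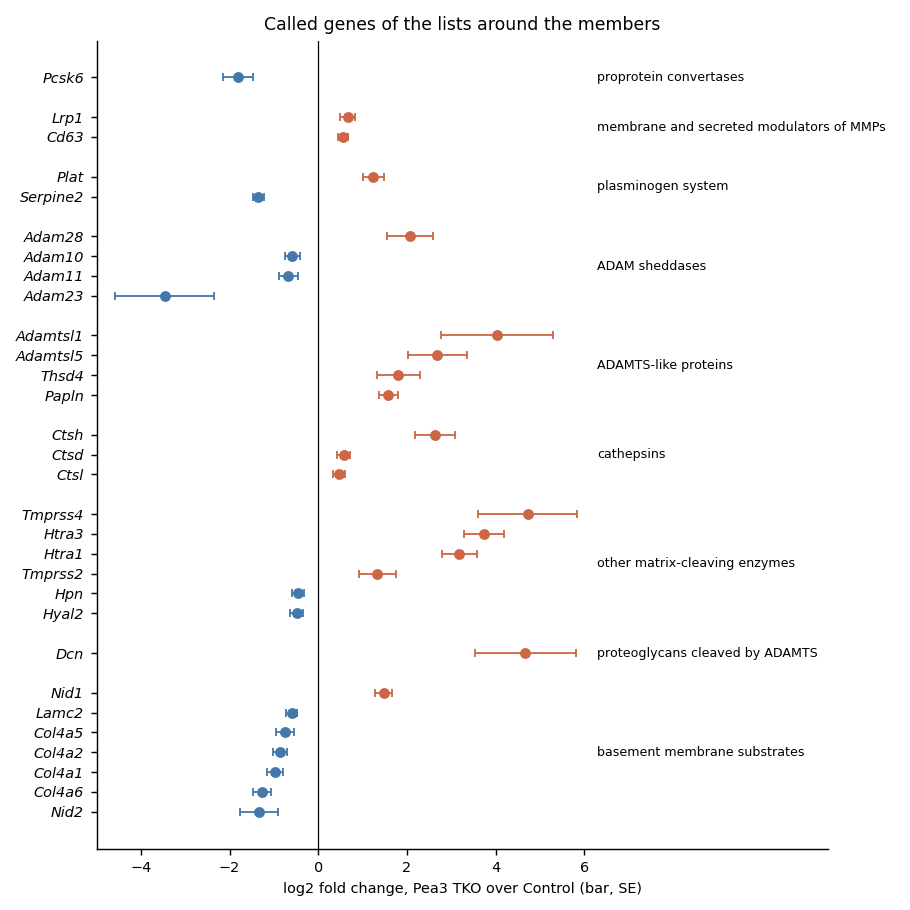
Log2 fold change of Pea3 TKO over Control, with the standard error as a bar, for the 30 called genes of the lists around the members. All 4 called ADAMTS-like genes and all 3 called cathepsins lie to the right of 0, and 6 of the 7 called basement membrane genes lie to the left. Among the ADAMTS-like genes and cathepsins, only Papln and Ctsh kept their calls in every fit that left out 1 sample.

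The calls were set against the libraries that stood apart. With the Y-linked level as a covariate, 6 of the 12 calls remained, namely Mmp2, Mmp9, Mmp17, Adamts4, Adamts14 and Adamts18. In that fit 778 of all tested genes passed (5.94%), among them 5 related genes that were higher and 5 that were lower. The Y-linked level was near 0 in Pea3 TKO 1 and 2 alone, so the genotype term rested mainly on Pea3 TKO 3 against Control. Leaving out Pea3 TKO 1 and 2 was nearly the same comparison and is not a separate check. It gave log2 fold changes of -1.341 for Mmp2 and -2.635 for Adamts18, beside -1.363 and -2.682 under the covariate. The 1 remaining Pea3 TKO sample was assumed to vary like the Control samples. The calls of Adamts1, Adamts10, Adamts17, Mmp15, Mmp23 and Timp2 were lost under the Y-linked covariate, with log2 fold changes of 0.73, -1.06, -0.85, 0.65, 1.53 and 0.40. With the mesenchymal marker level as a covariate, 9 of the 12 calls remained among 2050 genes called (15.7% of those tested), with 10 related genes higher and 8 lower, and Adamts17, Mmp23 and Timp2 had adjusted p of 0.056, 0.057 and 0.077. For Mmp2 the adjusted p was 0.0098 with the Y-linked covariate and 0.0011 with the mesenchymal one, and for Adamts18 it was 0.0014 and 1.5e-04. Leaving out single samples, Mmp2, Mmp9, Mmp15, Mmp17, Adamts1, Adamts4, Adamts14 and Adamts18 were called in all 6 fits, and Mmp23 was called in 4, Timp2 in 3, Adamts10 in 2 and Adamts17 in 1.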

How the data were processed

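RNA-seq counts for 3 Control and 3 Pea3 TKO samples were taken as the authors deposited them, 1 table per sample with whole read counts per gene symbol and no normalization. The submitters' processing notes name bcl2fastq 2.17, STAR 2.5.2b, featureCounts 1.5.0-p3, DESeq (version not given) and build mm10. The labels describe amplification of the RNA and poly-A selection before library preparation. The annotation and the strand setting of the counting are not given in the sources used here. One overlap between a member and a neighbouring gene is not reported here.

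Genes that passed filterByExpr were compared by the quasi-likelihood test of edgeR 4.0.16 (R 4.3.3) with TMM normalization. Genotype was the single term, and p-values were adjusted by the Benjamini-Hochberg method over 13087 genes. The threshold was an adjusted p of 0.05. CPM are TMM-normalized. Log2 fold changes are Pea3 TKO over Control, and their SE was derived from F. Limits that a count of 0 allows (3 counts per library) cover counting error only. Positions and exon lengths of all 46 members were matched by symbol in GENCODE M21. Catalytic sites were read from GENCODE M21 transcripts and promoters from RefSeq. Samples of a group differed by more than sampling noise (lowest chi-square per degree of freedom 16.04). The test was checked on simulated counts.

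The members and lists were chosen with earlier results of these data known. Each called member and each Timp gene was named, with the 6 uncalled members of highest level per length, the untested members, and up to 4 called genes of each list by smallest p. Any other named gene was chosen after its values were seen. Alternatives were DESeq2 1.42.0, RLE and upper-quartile size factors, other low-count filters, a replicate block, a Y-linked covariate, a stricter threshold, another gene length and leaving out each sample. The mesenchymal covariate and the fit without Pea3 TKO 1 and 2 were added after seeing the data.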

Additional observations from a re-analysis of the deposited data

How the results depend on the processing

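Under RLE and upper-quartile size factors, no low-count filter, a filter of at least 1 CPM in 3 samples and DESeq2, all 12 member calls remained. At an adjusted p under 0.01, 2 members were higher and 5 lower, and the share of all tested genes at that threshold was not computed. The numbers of genes called, of members higher and lower, and of related genes higher and lower were 778, 1, 6, 5 and 5 with the Y-linked covariate, 2050, 3, 7, 10 and 8 with the mesenchymal covariate, and 597, 1, 6, 4 and 4 without Pea3 TKO 1 and 2. Adamts8, without a call in the report, was lower under each of these settings, and also by DESeq2 and without Pea3 TKO 2. Leaving out 1 sample at a time gave 1948 to 3344 genes, 3 to 6 and 5 to 6 members, and 10 to 22 and 6 to 9 related genes. The log2 fold change of Adamts7 then ran from -0.525 to 0.014 and that of Adamts3 from -0.021 to 1.022, neither past the threshold. Timp1 was called by DESeq2 (adjusted p = 0.028). With the length of the longest transcript the share of Mmp2 in the Control samples was 35.9% in place of 41.4%, and Mmp14 took the place of Timp2 as the first member in Pea3 TKO. The cause of these changes was not tested. Both groups carry the same replicate numbers in the labels, but these did not pair the samples. Same-numbered samples correlated at 0.13, -0.042 and -0.001 in their deviations from the group means, and Control 2 and 3 correlated best with another number. With the replicate block 3191 genes passed, with 6 members higher (Mmp11 added), 6 lower (Adamts17 lost), and 20 and 9 related genes. The 19 members that failed the count filter could not be compared at this depth.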
